A study of Mus musculus with 6 samples.

Results

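The IL-6 family genes examined here are 3 ligands, Il6, Lif and Il11, and 4 receptor chains, Il6st, Il6ra, Osmr and Lifr. All non-control probes carrying one of these names were taken, which gave 12 probes for 7 genes out of 41174 probes under 28100 names on the array. The arrays compared cultured dermal fibroblasts of C57BL/6 mice given IL-1 at 20 ng/ml for 1, 2 or 4 h with untreated fibroblasts (0 h); the form of IL-1 and the age of the mice were not given, and both kinds of culture grew in serum-containing medium. Each time point was hybridised on 2 two-colour arrays, 1 with the treated RNA in Cy5 and 1 with it in Cy3, and the pair counted as 1 sample (n = 3 time points, 6 arrays). Whether separate cultures were used for the time points was not stated. The p-values and confidence intervals of the mean measure only the spread between the 3 time points. That spread holds changes over time besides an error that may be technical. A gene that responds at 1 time only can therefore miss the threshold of the mean.

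IL-6 family cytokines signal through gp130, the shared chain encoded by Il6st. IL-6 and IL-11 first bind their own receptors (Il6ra for IL-6) and then recruit gp130, whereas LIF signals through a pair of gp130 and the LIF receptor (Lifr), and oncostatin M in mice mainly through gp130 and the oncostatin M receptor (Osmr). The receptors activate JAK kinases and the transcription factor STAT3, and SOCS3 holds the signal back. In skin, fibroblasts are a known source of IL-6 after IL-1, and the Il6 promoter is a textbook target of NF-kB, C/EBP and AP-1 factors.

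All 7 genes had a promoter window in the RefSeq table of GRCm38.p6 (9 windows in all, each from 250 bases before to 50 after a start site). Of these windows 3 are shown because they belong to the gene that responded most (Il6), to the receptor gene that responded most (Osmr) and to a ligand gene whose ratio stayed near 0 (Lif). Capitals mark matches, on either strand, to the wide NF-kB form (GGG, any 5 bases, then CC), TGANTCA (AP-1), TGACG (CRE core) or TTNNGNAA (C/EBP, wide form); overlapping matches run together. The Il6 window lies at chr5:30012864-30013163 on the plus strand, the Osmr window at chr15:6874264-6874563 on the minus strand and the Lif window at chr11:4257318-4257617 on the plus strand.
Il6: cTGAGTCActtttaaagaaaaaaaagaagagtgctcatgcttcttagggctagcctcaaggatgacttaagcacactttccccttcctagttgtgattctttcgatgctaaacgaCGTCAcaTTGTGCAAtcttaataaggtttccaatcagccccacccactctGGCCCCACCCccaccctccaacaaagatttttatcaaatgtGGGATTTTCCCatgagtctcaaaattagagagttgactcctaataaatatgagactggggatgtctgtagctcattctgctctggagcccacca
Osmr: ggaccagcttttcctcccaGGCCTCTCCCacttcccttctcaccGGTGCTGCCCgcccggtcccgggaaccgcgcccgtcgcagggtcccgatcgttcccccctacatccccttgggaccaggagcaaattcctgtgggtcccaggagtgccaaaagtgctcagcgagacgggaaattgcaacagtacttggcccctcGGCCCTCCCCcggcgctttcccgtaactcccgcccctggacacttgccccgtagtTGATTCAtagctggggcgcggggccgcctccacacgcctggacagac
Lif: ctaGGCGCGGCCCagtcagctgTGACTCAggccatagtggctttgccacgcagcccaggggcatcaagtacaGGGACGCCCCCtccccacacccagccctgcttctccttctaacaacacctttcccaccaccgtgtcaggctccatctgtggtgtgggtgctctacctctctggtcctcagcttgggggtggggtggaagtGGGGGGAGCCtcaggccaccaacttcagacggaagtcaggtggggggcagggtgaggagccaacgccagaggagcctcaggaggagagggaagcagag
The Il6 window held 4 of the 6 motif kinds searched, and 1.59% of all 32851 windows held 4 or more. Its forward NF-kB match, GGGATTTTCC, began at position -44 from the start site, and these letters occurred on either strand in 26 windows (0.0791%). Those NF-kB letters are an exact string read from the Il6 window itself, so a low share was built in and marks no site. The count of 4 kinds has a like limit. Forms of NF-kB, AP-1 and C/EBP, known factors of the Il6 promoter, were among the 6 searched, so the 1.59% is no independent support. The AP-1, CRE and C/EBP matches of Il6 began at positions -249, -135 and -128. The Osmr and Lif windows held only NF-kB-form and AP-1 matches. The Il6ra window, not shown, held 3 kinds (NF-kB form, CRE core and C/EBP form), and no Il6ra probe passed. The Il6st window, of a gene that rose, held only 1 kind (NF-kB form). Whether motif kinds go with the response was not tested. The NF-kB form alone was in 50.8% of all windows, the AP-1 form in 7.81%, the CRE core in 20.8% and the C/EBP form in 40.7%. The STAT form TTCNNNGAA and the TATA box TATAAA, present in 8.30% and 13.6% of windows, were in 0 of the 9 member windows. A match is a description of the letters and not a measured site.

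Of the 12 member probes 11 were well above background in all 12 channels of the 6 arrays. The exception was the dimmest of 4 Lifr probes, which was flagged in none of them and entered no test. Each value is the log2 of treated RNA over untreated RNA, signed by the labelled dyes, after background correction and normalisation within the array, and averaged over both dye orientations. The authors' value table swaps the 2 arrays of each time point relative to the scanner files, and all signs would turn if the scanner files were the swapped ones. The ± of a single time is how far each orientation lay from the average, taken here as a technical error. The median of this distance over 30577 kept probes and all times was 0.062, and its 95th percentile was 0.20. All 10 fibroblast markers examined, from Col1a1 to Vim, were well above background in untreated cells on every array. So were 7 of 8 leukocyte and 5 of 5 keratinocyte markers, and 2 of 3 mast cell markers, but only 1 of 5 endothelial and 1 of 4 melanocyte markers, and up to 14.3% of negative control spots carried the flag in Cy3. Among the fibroblast markers Dcn and Fn1 rose by 0.46 and 0.35 in the mean response (limma adjusted p = 0.0297 and 0.00113) and Col3a1 fell by 0.25 (limma adjusted p = 0.00245). Of the leukocyte markers Cd14 and Csf1r rose by 0.17 and 0.13 in the mean response (limma adjusted p = 0.0147 and 0.0252), the other kept ones did not pass, and the keratinocyte gene Krt10 fell by 0.20 (limma adjusted p = 0.00379). The untreated log2 levels ran from 7.51 to 15.8 for fibroblast and from 6.04 to 8.76 for leukocyte markers, and the part of other cell types in the results was not tested. In such bulk RNA a change in the number of cells of a type and a change in RNA per cell cannot be told apart.

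Il6 was the only member far from its untreated level. The uncorrected mean signal of its probe in Cy5 was 519, 556 and 465 for untreated RNA and 2938, 3486 and 3984 for RNA after 1, 2 and 4 h of IL-1, each from a different array. In Cy3 it was 276, 277 and 331 for untreated RNA and 1098, 1762 and 1273 after 1, 2 and 4 h. Every treated signal lay above every untreated signal of the same dye.

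**Figure D1:**
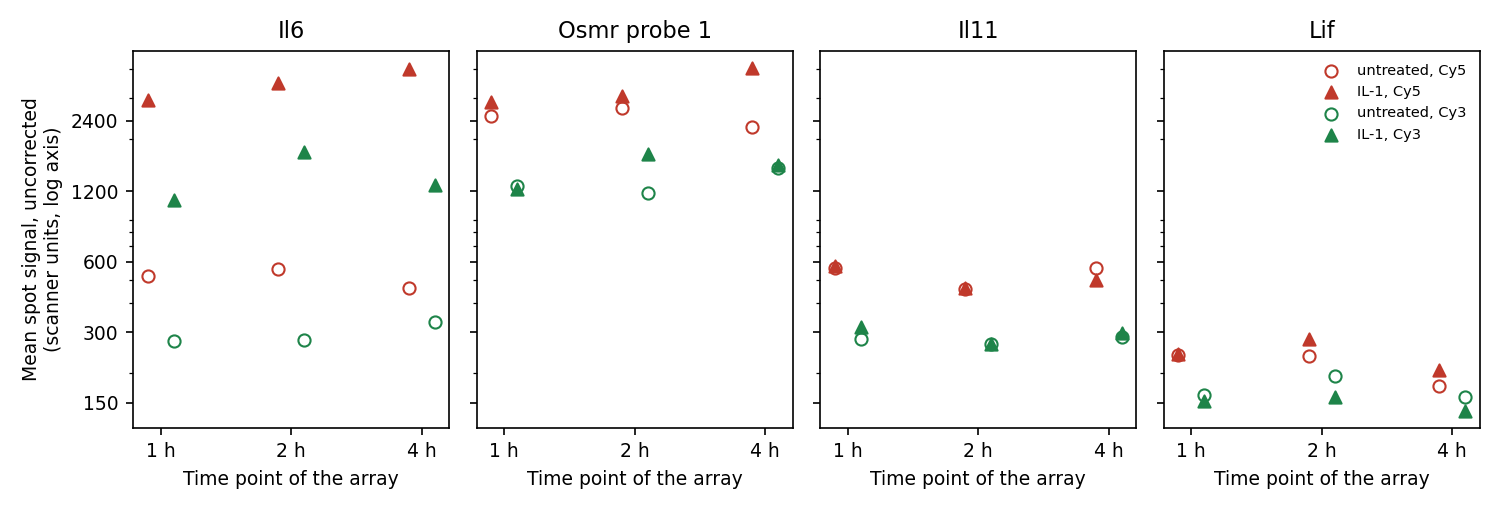
Uncorrected mean spot signal (scanner units, log axis) of Il6, the brighter Osmr probe, Il11 and Lif on each array, by the time point of the array. Open circles are untreated RNA, filled triangles IL-1-treated RNA, red Cy5 and green Cy3; on an array the treated RNA has one dye and the untreated RNA the other. The 2 groups are separated within each dye for Il6 only.

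The Il6 log2 ratio at 1 h was 2.59 with the treated RNA in Cy5 and 2.44 with it in Cy3. The same pair was 2.94 and 2.99 at 2 h, then 2.81 and 2.65 at 4 h. The averages were 2.51 ± 0.076 (5.71-fold), 2.96 ± 0.025 (7.80-fold) and 2.73 ± 0.080 (6.65-fold). The order was therefore untreated, 1 h, 4 h, 2 h. The step from 1 h to 2 h was 0.35 and 0.55 in the 2 orientations, the step down from 2 h to 4 h was -0.13 and -0.34, and 4 h lay above 1 h by 0.22 in each. These steps had one sign in both orientations but stand on 1 sample per time. The slope over time (0.11 ± 0.080 per doubling, SE, n = 3) did not pass (limma adjusted p = 0.706).

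Over the 3 times Il6 averaged 2.74 ± 0.077 (SE, n = 3; 95% confidence interval 2.55 to 2.92), or 6.66-fold, and rose by limma's moderated test over all kept probes (limma adjusted p = 8.00e-05), above 0 on 6 of 6 arrays. It was at least 2-fold higher in both orientations at every time. Such probes made up 0.17% of all kept probes at 1 h, 0.134% at 2 h and 0.111% at 4 h. Of the members 0 were at least 2-fold lower at any time, as were 0.00654% of kept probes at 1 h and 0 at 2 and 4 h. Among 18403 genes with a symbol, each represented by its brightest kept probe, Il6 ranked 7th from the highest log2 ratio at 1 h, 4th at 2 h and 3rd at 4 h in the direction of the labelled dyes; with all signs turned the same ranks would count from the lowest ratio.

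The 5 genes whose 3 ratios lay nearest to those of Il6 by Euclidean distance over the 3 time points, among 18402 others, were Ccl2, Ccl7, Icam1, Nfkbia and Angptl4. Ccl2, a monocyte chemokine, was nearest (distance 0.473) with 2.72, 2.54 and 2.73 at 1, 2 and 4 h. Ccl7, a related chemokine, followed (0.765) with 2.36, 2.32 and 2.34. Icam1, an adhesion molecule (distance 1.05), Nfkbia, the NF-kB inhibitor IkB-alpha (1.05), and Angptl4, an inhibitor of lipoprotein lipase (1.37), lay farther off. Nfkbia fell away from 3.02 at 1 h to 1.87 at 4 h, where Il6 did not. All were measured on the same arrays against the same untreated channels, so the likeness is a description.

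**Figure D2:**
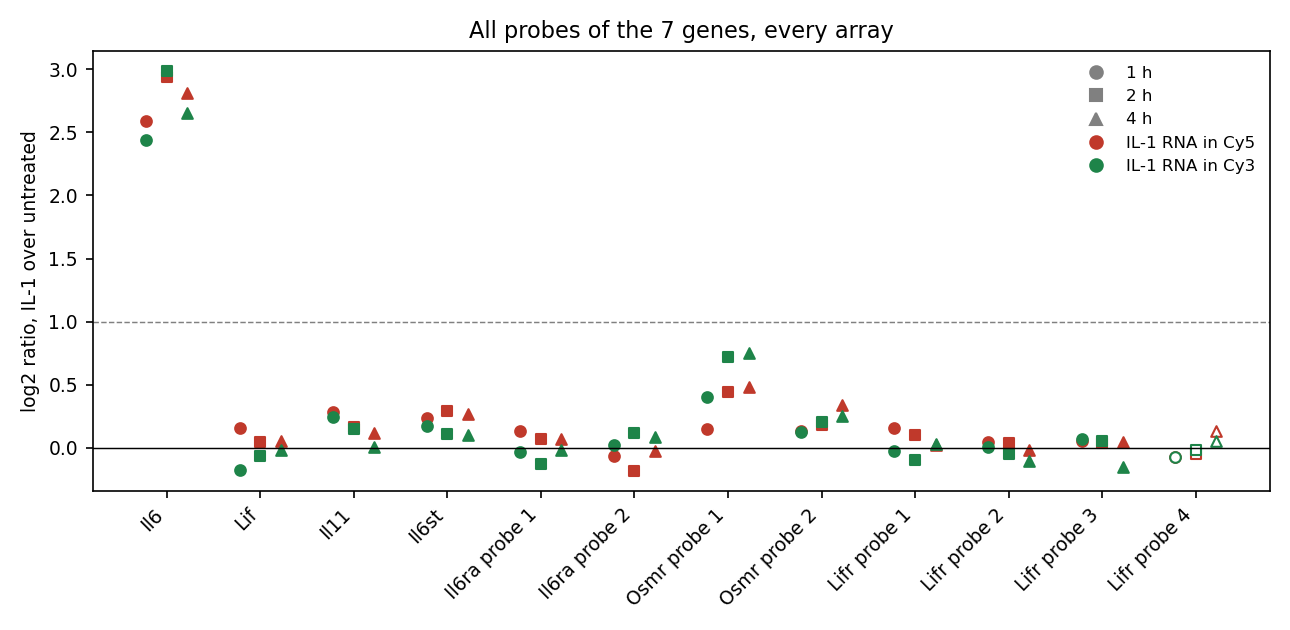
Log2 ratio of IL-1 over untreated for each of the 12 probes on every array. Circles, squares and triangles are 1, 2 and 4 h, red has the IL-1 RNA in Cy5 and green in Cy3, open symbols are the Lifr probe that was not well above background, and the dashed line marks 2-fold. Il6 lies between 2.44 and 2.99, and every other probe stays below the dashed line.

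The other ligands responded little or not measurably. Il11, a cytokine that fibroblasts make and that acts on stromal cells, had log2 ratios of 0.28 and 0.25 at 1 h in the 2 orientations, of 0.16 and 0.15 at 2 h, then of 0.12 and 0.0061 at 4 h. It was above 0 on 6 of 6 arrays and was lower at each later time in both orientations. The averages were 0.26 ± 0.019, 0.15 ± 0.0066 and 0.061 ± 0.055. The mean response of 0.16 ± 0.040 (SE, n = 3), or 1.12-fold, passed (limma adjusted p = 0.0343), and the slope of -0.10 per doubling did not (limma adjusted p = 0.263). The call for Il11 was not stable. It was lost with an offset of 16 (limma adjusted p = 0.0709), with median centring (mean 0.061, limma adjusted p = 0.286), with the scanner's processed signals (0.119), on the Cy3-treated arrays alone (0.0765), without the 1 h sample (0.0909) and without the 2 h sample (0.146).

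Lif, leukaemia inhibitory factor, had log2 ratios of 0.16 and -0.18 at 1 h, of 0.048 and -0.069 at 2 h, then of 0.053 and -0.015 at 4 h. The sign followed the dye at each time. The average over times was -0.00087, with a 95% confidence interval of -0.056 to 0.054 (n = 3), and did not pass (limma adjusted p = 0.984). Its uncorrected signals in Cy3 ran from 139 to 196 over both kinds of RNA, where the median negative control read 96.3 to 104. With the scanner software's own processed signals Lif stood at -0.0029, 0.0011 and -0.0097 at 1, 2 and 4 h. Il6 stood at 2.75, 3.21 and 2.95 (6.73-, 9.22- and 7.75-fold) with those signals.

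Of the receptor chains, Osmr responded most. On its brighter probe the log2 ratios were 0.15 and 0.41 at 1 h, later 0.44 and 0.72 at 2 h, then 0.48 and 0.75 at 4 h, the second value of each pair being the array with treated RNA in Cy3. The second value was the higher at each time, and such a gap between orientations cancels in the average. The averages were 0.28 ± 0.13 (1.21-fold), 0.58 ± 0.14 (1.50-fold) and 0.61 ± 0.13 (1.53-fold). Within an orientation the step from 1 h to 2 h was 0.29 and 0.31, and that from 2 h to 4 h was 0.036 and 0.030. On this probe 2 h and 4 h differed by less than the distance between orientations.

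The dimmer Osmr probe gave the same direction with smaller values of 0.13, 0.19 and 0.30 at 1, 2 and 4 h. Its step from 1 h to 2 h averaged 0.068 and that from 2 h to 4 h 0.10, each with one sign in both orientations. The probes differed by 0.15, 0.39 and 0.32 at these times. With the scanner's processed signals the dimmer probe stood at 0.21, 0.36 and 0.45, nearer to the 0.29, 0.60 and 0.63 of the brighter one. In the mean response the brighter probe rose by 0.49 ± 0.064 (SE, n = 3, limma adjusted p = 0.00445) and the dimmer by 0.21 ± 0.035 (limma adjusted p = 0.0107), both on 6 of 6 arrays. With the scanner's processed signals these became 0.51 and 0.34 and no longer passed (limma adjusted p = 0.0536 and 0.0542), a setting in which 1033 of all probes rose in place of 3214. On the Cy5-treated arrays alone the brighter probe was at 0.36 and on the Cy3-treated arrays alone at 0.62, both past the threshold. Without the 2 h sample the dimmer probe no longer passed (limma adjusted p = 0.0673).

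The slopes of Osmr, 0.17 and 0.084 per doubling of time, did not pass (limma adjusted p = 0.210 and 0.369). In all, 0 of the 11 tested member probes had a rising or falling slope by limma, with 2 rising (both Osmr) and 1 falling (Il11) at an unadjusted p under 0.05. At a limma adjusted p under 0.05 rising slopes made up 0.196% and falling ones 0.242% of all kept probes. The shares of all kept probes at an unadjusted p under 0.05 are not given here. Whether the member counts of 2 and 1 exceed those shares was therefore not tested. The slope of the brighter Osmr probe passed with no background correction (limma adjusted p = 0.0431) and with median centring (0.00761).

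**Figure D3:**
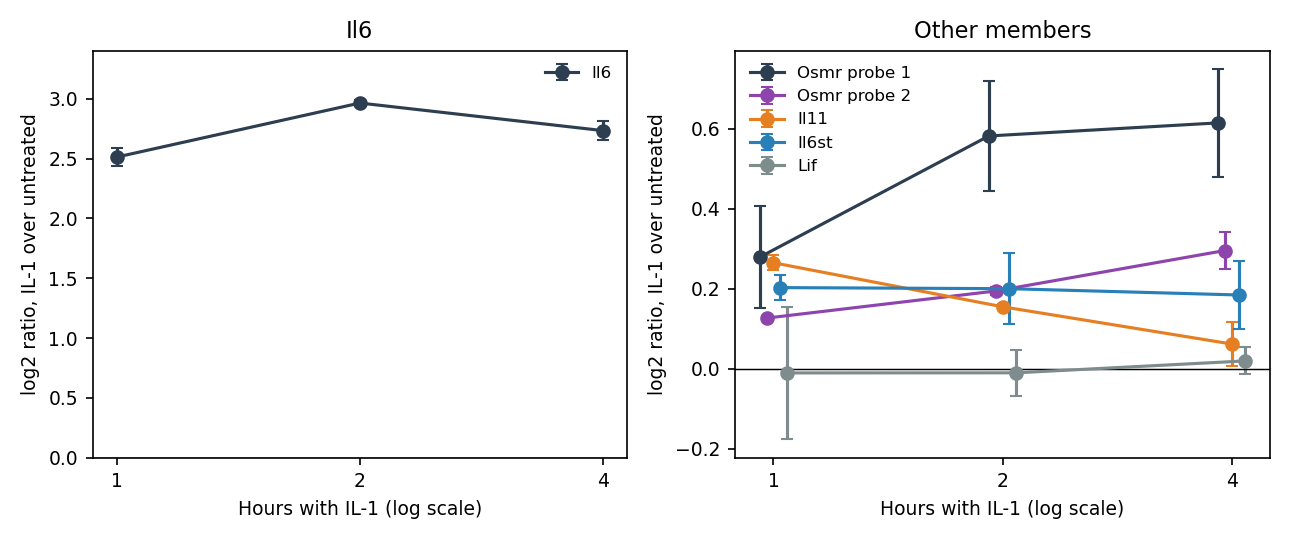
Average log2 ratio of IL-1 over untreated against hours with IL-1 (log scale), for Il6 (left) and for Osmr, Il11, Il6st and Lif (right, on a narrower axis and shifted sideways for sight). Bars reach the value of either dye orientation. Il6 peaks at 2 h at 2.96, the brighter Osmr probe climbs from 0.28 to 0.61, and Il11 declines from 0.26 to 0.061.

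Il6st, which encodes gp130, had log2 ratios of 0.23 and 0.17 at 1 h, of 0.29 and 0.11 at 2 h, then of 0.27 and 0.098 at 4 h. The averages were flat over time at 0.20 ± 0.030, 0.20 ± 0.089 and 0.18 ± 0.086. The mean response of 0.20 ± 0.022 (SE, n = 3), or 1.15-fold, passed (limma adjusted p = 0.00310), again on 6 of 6 arrays. With median centring it was 0.063 and did not pass (limma adjusted p = 0.159).

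Il6ra, the chain that binds IL-6 itself, had 2 probes that averaged 0.017 (95% confidence interval -0.045 to 0.078) and -0.0084 (-0.068 to 0.051) over the 3 times and did not pass (limma adjusted p = 0.705 and 0.851). On single arrays the brighter ranged from -0.13 to 0.13 and the dimmer from -0.18 to 0.12, with both signs at each time. The 3 Lifr probes above background averaged 0.029 (-0.030 to 0.089), -0.013 (-0.078 to 0.051) and 0.017 (-0.055 to 0.089) and did not pass either (limma adjusted p = 0.465, 0.779 and 0.744). At each time these 3 probes lay within 0.084 of one another. All but the brightest of them read only 112 to 128 in Cy3, where the median negative control read 96.3 to 104. Signals so near the background limit what ratios can show, so the narrow intervals alone do not establish that Lifr was unchanged.

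By the mean test 5 of 11 member probes, from 4 of 7 genes, rose, and 0 fell (limma; 5 and 0 at an unadjusted p under 0.05). Over all kept probes 10.5% rose and 11.4% fell by the same test. At an unadjusted p under 0.05 (limma) 5248 of the 30577 kept probes rose and 5427 fell. Of the probes past the threshold 97.1% had a mean below 0.5 in size, and the split between directions hung on the scaling, with 48.1% of calls upward here and 18.4% with median centring. Whether 1 untreated extract served all arrays was not stated; if so, the variation among untreated cultures does not enter this test.

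**Figure D4:**
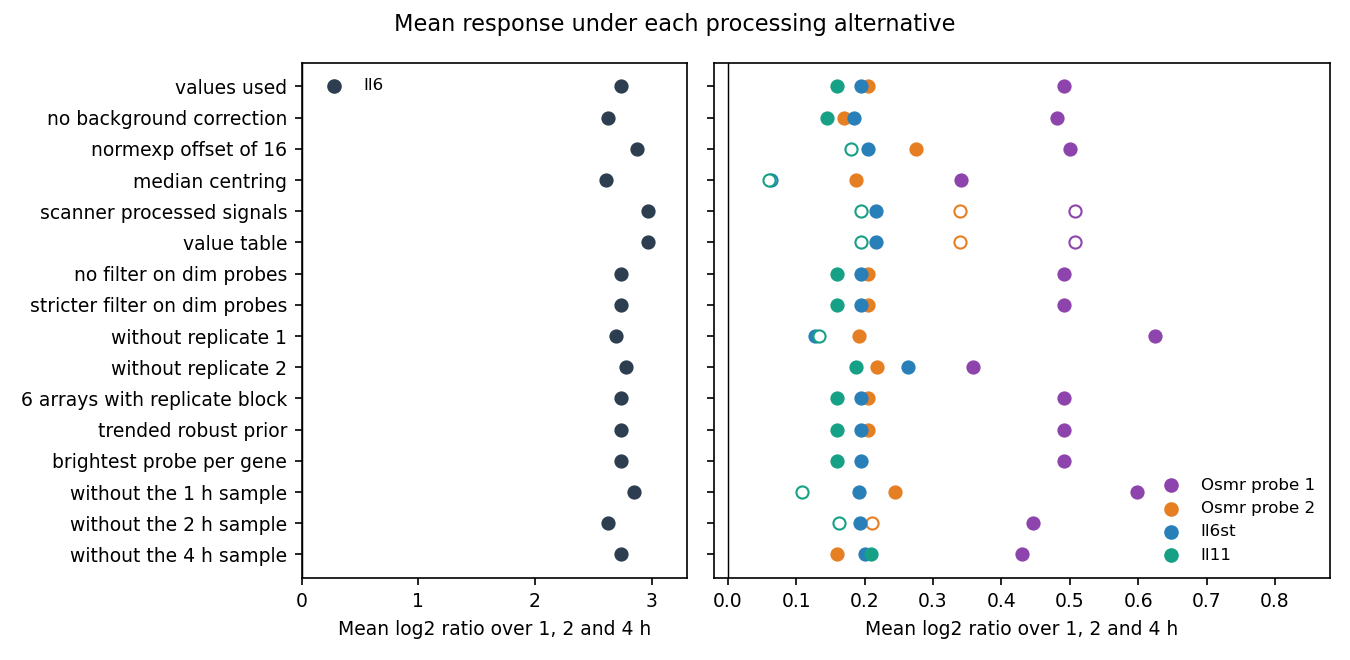
Mean log2 ratio over 1, 2 and 4 h of the 5 member probes that rose, under each way of processing (one line each, replicate 1 being the arrays with IL-1 RNA in Cy5 and replicate 2 those with it in Cy3); filled points have a limma adjusted p under 0.05 and open points do not. Il6 (left) stays between 2.61 and 2.97 and filled throughout, while each of the other 4 probes turns open on at least 1 line.

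The rest of the family gave few calls. The counts of this and each list below stand beside 10.5% rising and 11.4% falling over all kept probes. At an unadjusted p under 0.05 (limma) these were 5248 and 5427 of 30577 probes. Of 8 other ligand genes examined 7 were above background, and 0 rose or fell (limma; 3 rose and 1 fell at an unadjusted p under 0.05). They ran from -0.071 for Ctf1 (cardiotrophin-1) to 0.082 for Clcf1, with Osm, the ligand of the oncostatin M receptor, at 0.058, and Il27, Ctf2, Cntf and Ebi3 between -0.014 and 0.077. The Il31 probe was not above background. Single alternatives called some of them: Il27 passed without background correction (0.072, limma adjusted p = 0.0373), with the dye orientation as a replicate block (0.0165), with a trended prior (0.0420) and on the Cy3-treated arrays alone (0.16, limma adjusted p = 0.0122). Osm passed on the Cy5-treated arrays alone (0.20, limma adjusted p = 0.00669) and Ctf1 with the block (limma adjusted p = 0.0353). Ebi3 was past the threshold in opposite directions on the 2 orientations alone. Of 4 other receptor genes with a probe, 0 rose (limma; 0 at an unadjusted p under 0.05) and 1 fell, Il11ra1, which encodes the IL-11 receptor (-0.16 ± 0.029, SE, n = 3, limma adjusted p = 0.0123), and its second probe gave -0.18. Cntfr, Il27ra and Il31ra were at 0.0052, -0.013 and 0.044 and did not pass. The Il11ra1 call was lost with the scanner's processed signals (limma adjusted p = 0.0787), on the Cy5-treated arrays alone (0.0672) and without the 2 h sample (0.0973).

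Among 11 genes examined that carry the gp130 signal 5 rose and 1 fell, with a median of 0.11 against 0.0021 over all kept probes. The kinase genes Tyk2 (0.25), Jak2 (0.22) and Jak1 (0.16) rose, and Stat3, the main transcription factor of the pathway, fell by 0.19, going from -0.093 at 1 h to -0.35 at 4 h. The phosphatase gene Ptpn11 (0.14) and the adaptor gene Grb2 (0.11), named after their values were seen, made up the rest of the calls. Other probes of Ptpn11 stood at 0.12 and -0.038, and a second Grb2 probe at 0.050. These calls were small and unsteady. Second probes of Jak2 and Stat3 stood at -0.0069 and -0.045, Jak1 was at 0.0022 with median centring, Tyk2 was at 0.12 and not past the threshold on the Cy5-treated arrays alone, and Stat3 was at -0.040 on the Cy3-treated arrays alone. With the scanner's processed signals 1 gene of the list rose and 0 fell, as it was when the 2 h sample was left out, whereas median centring gave 1 rise and 2 falls.

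Of 14 inhibitors of gp130 signalling 4 rose and 1 fell (median 0.031). Cish, a STAT5-induced member of the SOCS family, averaged 1.01 ± 0.26 (SE, n = 3, limma adjusted p = 0.0389). It went from 1.76 at 1 h to 0.16 at 4 h. Socs3, which binds gp130 and blocks its JAKs, averaged 0.47 ± 0.086 (SE, n = 3, limma adjusted p = 0.0131), with 0.72, 0.47 and 0.21 at 1, 2 and 4 h and a falling slope of -0.26 per doubling (limma adjusted p = 0.0243). Ptpn1, a phosphatase gene named after its value was seen, rose by 0.12 and only just passed (limma adjusted p = 0.0494). The phosphatase gene Ptpn2 rose by 0.22 (its second probe stood at 0.024), and Pias1, an inhibitor of STAT proteins, fell by 0.19 (second probe -0.016). Socs1, singled out after its values were seen, had 0.70, 0.17 and 0.0054 at 1, 2 and 4 h and a falling slope (-0.35, limma adjusted p = 0.0476), while its mean did not pass. Cish, Socs3 and Socs1 all stood highest at 1 h. With the scanner's processed signals 1 gene of this list rose and 0 fell, and without the 2 h sample the counts were the same. Cish and Socs3 then lost their calls (limma adjusted p = 0.136 and 0.0815 with those signals, 0.163 and 0.0738 without 2 h). The Cish call was also lost with an offset of 16 (limma adjusted p = 0.0780).

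Of 19 textbook STAT3 target genes that passed the filter 9 rose and 1 fell (median 0.090), led by Icam1 (2.21), the NF-kB cofactor gene Bcl3 (2.01), Cebpd (1.58) and Cebpb (1.18). These 4 are also known targets of NF-kB or of IL-1, and Cebpb and Cebpd also belong to the regulators of Il6 below. With the scanner's processed signals 5 rose, and with median centring 4 fell. A second Icam1 probe stood at 0.66. The gene that fell was Fos (-0.32), an AP-1 subunit, named after its value was seen. Its only probe was dim (mean log2 signal 6.70), though well above background on every array. Saa3, an acute-phase protein gene counted among the 9 and also named after its value was seen, was well above background on 0 of 6 arrays in untreated RNA and on 5 of 6 in treated RNA. It was tested only because of its treated signals, and its rise is no independent support for the list.

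The list nearest to Il6 itself holds the factors that transcribe it and those that act on its mRNA. Of these 10 of 16 rose with 0 falling, at a median of 0.45 (limma, with 12 and 0 at an unadjusted p under 0.05). Over all kept probes 10.5% rose and 11.4% fell. Like the other lists, this one was chosen with earlier results of these data known. Nfkbiz, the cofactor IkB-zeta that Il6 transcription needs, rose by 2.19 ± 0.36 (SE, n = 3, limma adjusted p = 0.00905) and went from 3.37 at 1 h to 2.03 and 1.18, a slope of -1.10 per doubling (limma adjusted p = 0.00237). Zc3h12a, whose product Regnase-1 degrades Il6 mRNA, rose by 1.64 and stood at 1.91, 1.94 and 1.08. Cebpd, a C/EBP factor, was highest at 2 h like Il6 (1.44, 2.08 and 1.23), and Cebpb was level at 1.20, 1.17 and 1.17. The untreated signal of Zc3h12a was well above background on 5 of 6 arrays. Zc3h12a was therefore tested only because of its treated signals, and its rise is no independent support for the list. Its mean ran from 1.32 to 3.15 over the alternatives. The list had 6 genes up with the scanner's processed signals, and Nfkbiz did not pass there (limma adjusted p = 0.0656) or without the 2 h sample (0.0509).

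Of 4 genes for shedding of IL-6 receptors 3 rose and 0 fell (limma; 3 and 0 at an unadjusted p under 0.05). They were Adam17, the sheddase of the IL-6 receptor (0.24), and Rhbdf1 (0.32) and Rhbdf2 (0.44), which carry Adam17 to the cell surface. Rhbdf2 went from 0.22 at 1 h to 0.75 at 4 h. Adam10, the remaining gene of the list, named after its value was seen, was at -0.087 and did not pass (limma adjusted p = 0.195). On the Cy3-treated arrays alone 1 gene of the list fell. The Rhbdf2 call was lost with the scanner's processed signals (0.87, limma adjusted p = 0.0977) and without the 2 h sample (limma adjusted p = 0.0714).

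**Figure D5:**
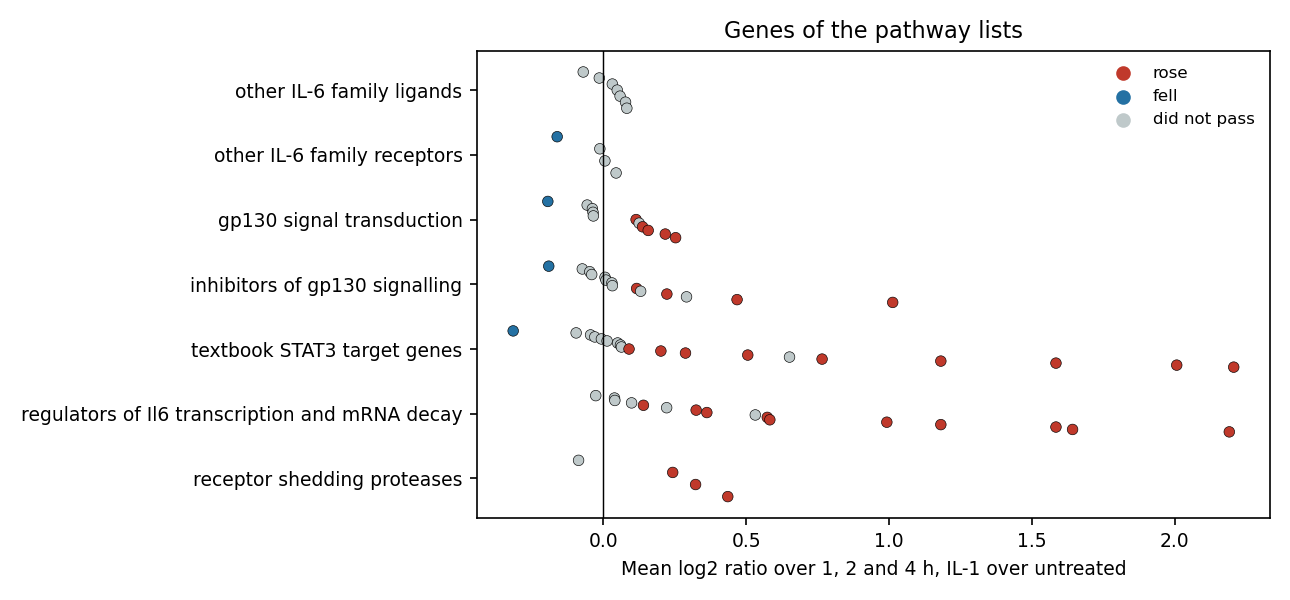
Mean log2 ratio over 1, 2 and 4 h for each gene of the pathway lists, 1 point per gene (brightest kept probe), spread vertically by rank within a list. Red genes rose and blue genes fell at a limma adjusted p under 0.05, and grey genes did not pass. The 10 genes that rose among the regulators of Il6 reach 2.19, while the other ligands and receptors of the family lie between -0.16 and 0.082.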

How the data were processed

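The members and all gene lists were chosen with earlier results of these data known. Agilent Feature Extraction 7.5.1 made the scanner files, per the file headers, and the deposited intensity columns are each spot's mean signal, its local background and a processed signal. The log2 ratios of the value table deposited by the authors match, in 100% of spots to within 0.001, the treated over untreated processed signals not of their own array but of its dye-swap partner. If the table's columns were exchanged, averages of a pair stay as they are; if the scanner files were, every sign here turns.

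From the intensities, background was corrected with normexp (offset 50, limma 3.58.1 in R 4.3.3) and arrays were normalised by loess; control spots had no weight and outlier spots were left out. The scanner software's flag for signals well above background had to be set on each array of 1 or more conditions, which left 30577 probes. The 2 arrays of a time point were averaged. The mean over 1, 2 and 4 h and the slope on log2 time (2 and 1 residual degrees of freedom) were tested against 0 with limma, two-sided, and p-values were adjusted by Benjamini-Hochberg over all kept probes at 0.05. The fits were also tested on simulated data. The number of arrays limits the precision. Gene names came from the files, and for 18710 kept probes through RefSeq accessions. Named list genes are at most the 4 largest calls of a list, and all other ligands and receptors examined, besides those said to be named after their values were seen; some list genes are not reported here. Alternatives were the background, offset, normalisation, filter, prior, arrays and time points used.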

Additional observations from a re-analysis of the deposited data

How the results depend on the processing

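Over the alternatives tried, Il6 rose in 15 of 15 (2.61 to 2.97, limma adjusted p from 2.66e-08 to 0.0394), and 0 member probes fell in each. These 15 are not all separate checks. The value table and the processed signals gave Il6 the same mean of 2.97, and the filter and block settings left it at 2.74. The 5 member probes that rose became 3 with median centring and 2 with the scanner's processed signals or the authors' value table, and ranged from 3 to 5 when an orientation or a time point was left out. The rising slopes went from 0 to 1 (the brighter Osmr probe) with no background correction and with median centring. Dye orientation is the replicate number, and same-numbered arrays deviated together (correlation 0.765 to 0.843 across probes). With it as a replicate block over 6 unaveraged arrays, 5 member probes rose and 0 fell, with limma adjusted p of 2.00e-07 for Il6 and 0.00786 for Il11, 0 slopes passed among the members, and no other member call changed. Over all probes that block gave 4366 rises and 4669 falls in place of 3214 and 3472, median centring 1680 and 7452, the scanner's processed signals 1033 and 933, and the arrays with IL-1 RNA in Cy3 alone 4540 and 5905. Ebi3 turned to 0.17 without replicate 1 (-0.20 without replicate 2) and Il27ra to 0.12 without replicate 2 (-0.14 without replicate 1); the cause was not tested. Slopes without a time point have no residual degrees of freedom and were not run, and neither was a block by scan date. The dim Il6ra, Lifr, Lif and second Osmr probes lie near the background signal, which limits what ratios they can show. The probes used for Fos, Rhbdf2 and Tyk2 were similarly dim (mean log2 signals 6.70, 6.86 and 7.07).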
